A study of Mus musculus with 4 samples.

Results

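The genes described are 10 core components of TGF-beta signaling, the ligands Tgfb1, Tgfb2 and Tgfb3, the receptors Tgfbr1 and Tgfbr2, and the intracellular mediators Smad2, Smad3, Smad4, Smad6 and Smad7. They were taken by symbol, with every probe set that the annotation assigns to a single gene. This gave 24 probe sets for the 10 genes, of 45037 probe sets and 18193 genes in all. Each gene is represented by its lead probe set, the one whose mean log2 value over the 4 arrays was highest. The study treated female mammary tumor cells of mixed FVB/N;B6 background with 2 µg/ml doxycycline for 24 hours, or left them untreated, in 2 lines named 8534 and 8542. Each line came from a primary tumor of an MMTV-tTA/TOP-ICN1 mouse. In these mice the mammary tumor virus promoter drives the transactivator tTA, and tTA drives human intracellular NOTCH1 (ICN1). All 4 arrays therefore carried RNA of ICN1-transformed cells, with ICN1 off in the doxycycline group and on in the untreated group. There was 1 array per line and condition, and no doxycycline-treated line without the transgene was analysed here, so that loss of ICN1 and exposure to the drug cannot be told apart.

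TGF-beta ligands are secreted in a latent form and, once released, bind the type II receptor TGFBR2, which recruits and phosphorylates the type I receptor TGFBR1. The activated receptor phosphorylates SMAD2 and SMAD3, which enter the nucleus with SMAD4 and regulate transcription, whereas SMAD6 and SMAD7 are inhibitory. In mammary epithelium the pathway restrains proliferation and is also known for its part in matrix production and in the transition to a mesenchymal state.

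Values were log2 MAS5 signals, given here as signal units. The trimmed mean that MAS5 sets on each array lay between 97.7 and 101.8 units, and the 3' to 5' log2 difference of the β-actin control lay between 0.25 and 0.30 on all arrays. Hey1, a repressor induced by NOTCH, was at 96.4 and 101 units in treated 8534 and 8542 cells, against 1138 and 762 units in untreated cells. Hes1, another NOTCH target, was at 224 and 299.5 units in treated cells, against 391 and 396 units in untreated cells (not significant, limma adjusted p = 0.0579). The luminal markers Krt8, Krt18, Krt19, Epcam and Cdh1 were at 1431 units or higher on every array, and of these Krt8 and Krt18 rose and Krt19 fell with doxycycline. The basal markers Krt5, Krt14, Trp63 and Acta2 summed to 7504 and 236 units in treated 8534 and 8542 cells, against 4451 and 188 units in untreated cells. Acta2 made up most of these sums, whereas Krt14 was at 869 and 10.0 units in treated cells, against 1379 and 15.9 units in untreated cells. The fibroblast markers Pdgfra, Pdgfrb, Dcn and Lum summed to 199.8 and 58.7 units in treated cells, against 257 and 48.5 units in untreated cells. The 4 leukocyte markers summed to between 155 and 206 units and the 4 endothelial markers to between 106 and 246 units on every array. Of these 16 markers Tek, an endothelial receptor, fell and no other passed limma's adjusted test (at an unadjusted p under 0.05 Acta2 was higher, and Krt14 and Pdgfra were lower, and Ptprc and Pecam1 lay under the expression filter). The part of such cells in the results was not tested.

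To show the sequence near the start of the genes that passed the test, promoter windows were taken from RefSeq (GRCm38.p6), 250 bases before to 50 bases after the start. The table used here held 7 windows for 6 of the 10 genes, and the windows of Tgfb1, Tgfbr2 and Smad6 are printed because these genes changed with doxycycline. Tgfb3, which also changed, was not among them. Capitals mark matches on either strand to 4 motifs, the RBPJ core TGGGAA, the SMAD box CAGAC, the GC box GGGCGG and the AP-1 site TGANTCA. RBPJ is the DNA-binding partner of intracellular NOTCH. The Tgfb1 window is chr7:25686752-25687051 on the plus strand, that of Tgfbr2 is chr9:116175314-116175613 and that of Smad6 is chr9:64022010-64022309, both on the minus strand.
Tgfb1: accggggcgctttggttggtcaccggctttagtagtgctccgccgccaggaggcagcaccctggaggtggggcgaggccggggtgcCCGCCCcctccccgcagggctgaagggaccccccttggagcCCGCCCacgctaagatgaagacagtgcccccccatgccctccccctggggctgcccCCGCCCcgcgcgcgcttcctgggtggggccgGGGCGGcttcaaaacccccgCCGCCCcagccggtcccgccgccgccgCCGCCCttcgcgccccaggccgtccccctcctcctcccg
Tgfbr2: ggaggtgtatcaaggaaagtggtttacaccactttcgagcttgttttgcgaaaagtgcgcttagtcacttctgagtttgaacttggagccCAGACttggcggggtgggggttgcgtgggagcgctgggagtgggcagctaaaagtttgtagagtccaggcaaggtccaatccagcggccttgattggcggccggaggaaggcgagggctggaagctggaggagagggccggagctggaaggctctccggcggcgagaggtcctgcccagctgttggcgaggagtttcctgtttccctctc
Smad6: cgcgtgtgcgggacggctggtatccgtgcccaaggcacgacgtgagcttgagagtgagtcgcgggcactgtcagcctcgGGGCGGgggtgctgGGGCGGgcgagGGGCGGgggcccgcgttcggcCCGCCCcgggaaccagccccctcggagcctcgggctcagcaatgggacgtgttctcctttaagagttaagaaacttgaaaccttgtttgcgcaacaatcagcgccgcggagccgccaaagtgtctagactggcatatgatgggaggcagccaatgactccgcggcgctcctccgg

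The GC box occurred 6 times in the Tgfb1 window and 4 times in the Smad6 window, and had no match in that of Tgfbr2. A SMAD box stood at base 91 of the Tgfbr2 window, counted from 1 at its 5' end. The RBPJ core had no match in the 3 printed windows. Over all 7 windows it matched in 1, that of Smad3, whereas 25.6% of the 32851 windows of the same length in the table held it. The SMAD box was found in 3 of the 7 windows (49.6% of all windows), the GC box in 4 (35.7%) and the AP-1 site in 0 (7.81%). Matches to different motifs overlapped in 0 places of the 7 windows, and a match describes the letters only.

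To ask whether the core pathway genes moved when ICN1 was switched off, doxycycline was compared with no treatment within each line. Of the 10 genes, 3 rose and 1 fell in a limma fit that paired the arrays by line, and 6 did not pass the test (adjusted p under 0.05, over all probe sets tested). Tgfb3, Tgfbr2 and Smad6 rose, and Tgfb1 fell. Among all 15070 genes tested by their lead probe set, 4.76% rose and 6.95% fell. The 10 genes were chosen with earlier results of these data known, so that their counts are descriptions. The median of the mean log2 changes was 0.10 for the 10 genes and 0.02 for all genes tested. Over single probe sets, 22 of the 24 were above the expression filter (the 25th percentile of mean log2 values), and 3 rose and 1 fell, against 3.69% and 5.54% of the 33778 probe sets tested. A change past 2-fold in the same direction in both lines, the criterion in the study's methods, was met upward by Tgfb3 and Tgfbr2 and downward by no gene of the 10. Of all 45037 probe sets, those under the expression filter included, 3.44% met it upward and 4.40% downward. No share over genes was computed. All 4 calls were lost when the variance model had no intensity trend (limma adjusted p between 0.23 and 0.30) and when the pairing by line was dropped (adjusted p between 0.0871 and 0.49). Total RNA of a culture cannot tell fewer cells that express a gene from less RNA per cell.

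**Figure D1:**
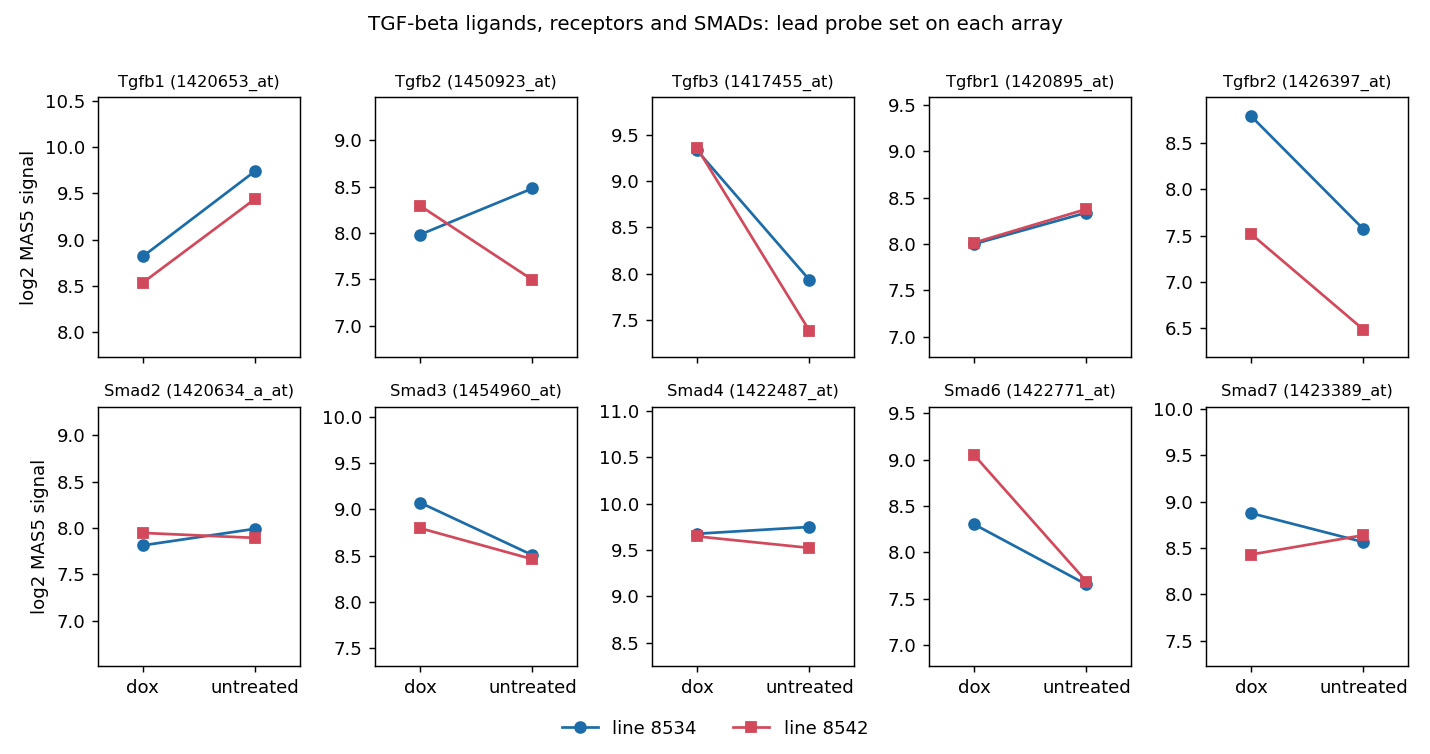
Log2 MAS5 signal of the lead probe set of each of the 10 genes on doxycycline-treated (dox) and untreated arrays, 1 point per array, with lines joining the arrays of 1 cell line. Every vertical axis spans the same number of log2 units. Tgfb3 lies at 9.33 and 9.36 on the treated arrays and at 7.93 and 7.38 on the untreated arrays, and the lines of Tgfb2, Tgfb3, Smad2 and Smad7 cross.

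Of the ligands, Tgfb1 and Tgfb3 moved in opposite directions in both lines, and Tgfb2 did not pass the test. Tgfb3 (probe set 1417455_at) was at 645 and 657 units in doxycycline-treated 8534 and 8542 cells, against 244 and 167 units in untreated cells. Both treated values lay above both untreated values. The rise was 2.64-fold in 8534 cells and 3.93-fold in 8542 cells, with a mean log2 change of 1.69 ± 0.41 (limma adjusted p = 0.00181; SD, n = 2 lines). Tgfb3 was measured by this probe set alone.

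Tgfb1 (1420653_at) was at 452 and 372 units in treated 8534 and 8542 cells, against 857 and 697 units in untreated cells. The groups did not overlap, and the falls in the lines were nearly equal, 1.90-fold and 1.87-fold. The mean log2 change was -0.91 ± 0.01 (limma adjusted p = 0.005; SD, n = 2 lines). The other probe set of Tgfb1 (1445360_at) was at 53.9 and 53.2 units in treated cells, against 50.2 and 55.7 units in untreated cells, with overlapping groups (limma adjusted p = 0.977). Over the mean of both probe sets the log2 change was -0.45 and the call was lost (adjusted p = 0.122).

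Tgfb2 (1450923_at) was at 253 and 314 units in treated 8534 and 8542 cells, against 358 and 181 units in untreated cells. It was 1.41-fold lower with doxycycline in line 8534 and 1.74-fold higher in line 8542, so that the mean log2 change of 0.15 ± 0.92 (SD, n = 2 lines) was not significant (limma adjusted p = 0.819). All 4 probe sets of Tgfb2 had this pattern, with log2 changes between -0.50 and -0.16 in line 8534 and between 0.43 and 1.12 in line 8542. The probe sets were read on the same arrays and are not replicates. In untreated cells the lead probe set was 1.98-fold higher in line 8534 than in line 8542, and after doxycycline it was 0.80 times the value of line 8542. Whether the lines responded differently to doxycycline has no test with 1 array for each line and condition.

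Of the receptors, Tgfbr2 rose and Tgfbr1 did not pass the test. Tgfbr2 (1426397_at), the ligand-binding type II receptor, was at 443 and 184 units in treated 8534 and 8542 cells, against 190 and 89.7 units in untreated cells. The groups overlapped because line 8534 was higher than line 8542 in both conditions, by 2.41-fold with doxycycline and by 2.12-fold without, whereas each line rose, by 2.33-fold and 2.05-fold. The mean log2 change was 1.13 ± 0.13 (limma adjusted p = 0.00592; SD, n = 2 lines). The other probe sets of Tgfbr2 (1422019_at and 1425444_a_at) were between 3.09 and 10.2 units on all arrays and lay under the expression filter, and they were higher with doxycycline in line 8534 and lower in line 8542. Over the mean of the 3 probe sets the log2 change was 0.20 and the call was lost (limma adjusted p = 0.85).

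Tgfbr1 (1420895_at), the type I receptor kinase, was at 256 and 258 units in treated 8534 and 8542 cells, against 323 and 332 units in untreated cells. Both treated values lay below both untreated values, by 1.26-fold and 1.29-fold within the lines. The mean log2 change of -0.35 ± 0.02 (SD, n = 2 lines) was not significant (limma adjusted p = 0.19), although its unadjusted p was under 0.05 and its 95% interval in the fit ran from -0.68 to -0.02. The other probe sets, 1420893_a_at and 1420894_at, were at 26.5 units or lower on every array and were lower with doxycycline in both lines as well, with mean log2 changes of -0.47 and -0.35 that did not pass either (limma adjusted p = 0.567 and 0.735). Doxycycline and untreated values did not overlap for 5 of the 10 genes (Tgfb1, Tgfb3, Tgfbr1, Smad3 and Smad6), which was the case for 45.0% of all genes tested.

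**Figure D2:**
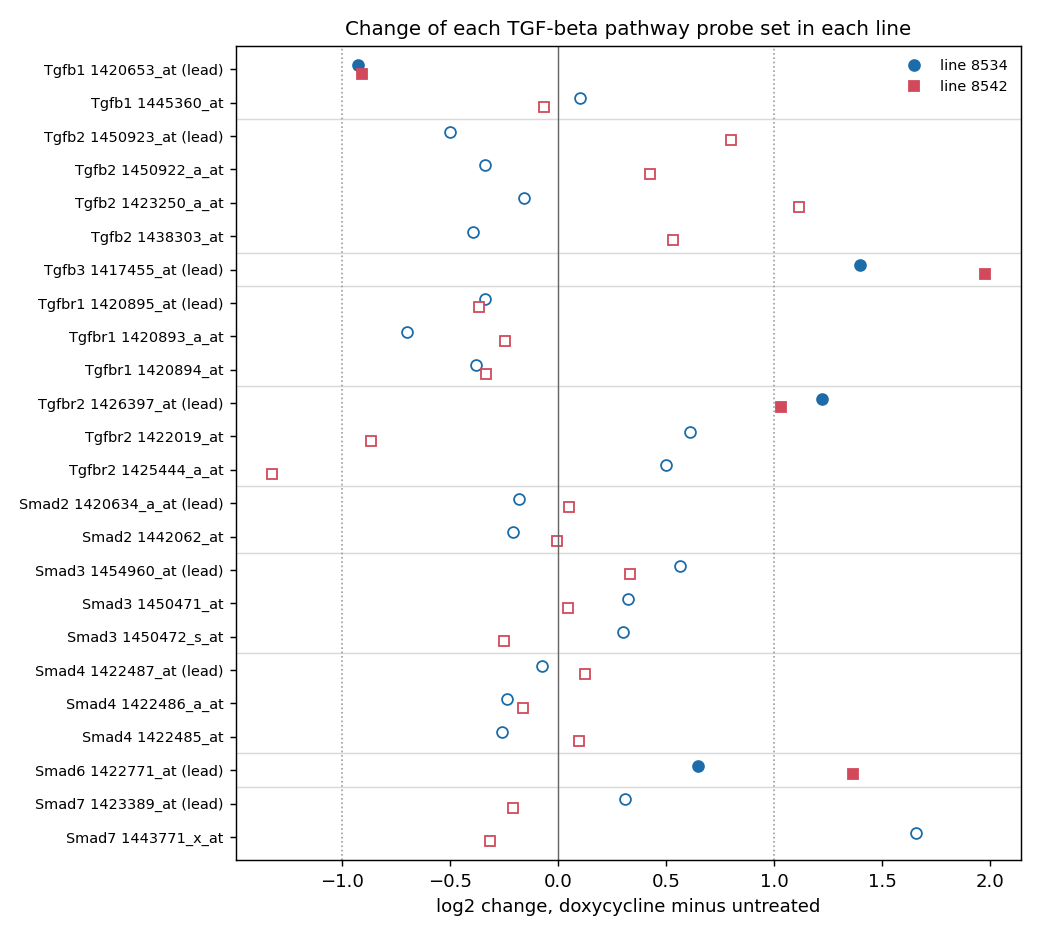
Log2 change (doxycycline minus untreated) of the 24 probe sets of the 10 genes, 1 circle for line 8534 and 1 square for line 8542. Filled symbols passed the test (limma adjusted p below 0.05), and dotted vertical lines mark a 2-fold change. The 4 probe sets of Tgfb2 lie on opposite sides of 0 in the lines, and Tgfb1 lies at -0.92 and -0.91.

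Of the receptor-regulated SMADs, Smad2 and Smad3, and their common partner Smad4, 0 of 3 passed limma's adjusted test and 1, Smad3, had an unadjusted p under 0.05. Smad3 (1454960_at) was at 539 and 445 units in treated 8534 and 8542 cells, against 364 and 353 units in untreated cells. The groups did not overlap, with values 1.48-fold and 1.26-fold higher within the lines. The mean log2 change was 0.45 ± 0.16 (limma adjusted p = 0.094; SD, n = 2 lines), with a 95% interval of 0.13 to 0.77. The other probe sets of Smad3 (1450471_at and 1450472_s_at) had mean log2 changes of 0.19 and 0.03, and the second was higher with doxycycline in line 8534 and lower in line 8542.

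Smad2 (1420634_a_at) was at 225 and 247 units in treated 8534 and 8542 cells, against 255 and 238 units in untreated cells. Smad4 (1422487_at), which joins the phosphorylated SMADs, was at 818 and 803 units in treated cells, against 861 and 736 units in untreated cells. Treated and untreated values overlapped for both genes. Their mean log2 changes were -0.06 for Smad2 and 0.03 for Smad4 (limma adjusted p = 0.865 and 0.936), with 95% intervals of -0.42 to 0.29 and of -0.26 to 0.31. The other probe set of Smad2 and the other 2 of Smad4 had mean log2 changes between -0.20 and -0.08, none of which passed.

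Of the inhibitory SMADs, Smad6 rose and Smad7 did not pass the test. Smad6 (1422771_at), which mainly restrains BMP receptor signaling, was at 316 and 531 units in treated 8534 and 8542 cells, against 201 and 206 units in untreated cells. The untreated lines were close together and both treated values lay above them. The rise was 1.57-fold in 8534 cells and 2.58-fold in 8542 cells, with a mean log2 change of 1.01 ± 0.51 (limma adjusted p = 0.02; SD, n = 2 lines). Smad6 had no other probe set.

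Smad7 (1423389_at), a feedback inhibitor that TGF-beta itself induces, was at 470 and 345 units in treated 8534 and 8542 cells, against 379 and 399 units in untreated cells. It was 1.24-fold higher with doxycycline in line 8534 and 1.16-fold lower in line 8542, and the mean log2 change of 0.05 ± 0.37 (SD, n = 2 lines) did not pass (limma adjusted p = 0.901). The other probe set (1443771_x_at) was at 131 and 43.1 units in treated cells, against 41.6 and 53.6 units in untreated cells. The treated 8534 array stood apart at this probe set, 3.15-fold above the untreated array of its line, and the change did not pass (limma adjusted p = 0.426). The x suffix marks probe sets in which some probes can also match other transcripts. The difference between Smad6 and Smad7 was not itself tested.

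Other genes of the pathway were taken from 6 lists by role, 121 genes in all, of which 110 were tested. Among them 25 rose and 8 fell, 22.7% and 7.27% of those tested, against 4.76% and 6.95% of all genes tested. Their median mean log2 change was 0.20, against 0.02 for all genes tested. The lists were chosen with earlier results of these data known, so that these shares are descriptions. The list of TGF-beta response genes and that of latency and activation lay highest, with medians of 0.64 and 0.68, and 5 genes stand in 2 of the lists. When the probe sets of a gene were averaged, 28 of the 33 calls held, 4 were lost and 1 gene, Angptl4, lay under the filter. All 33 were lost without the intensity trend and without the pairing by line, as for the 10 genes, and Acvr2b, Skil, Tagln and Id1 were lost without the expression filter.

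**Figure D3:**
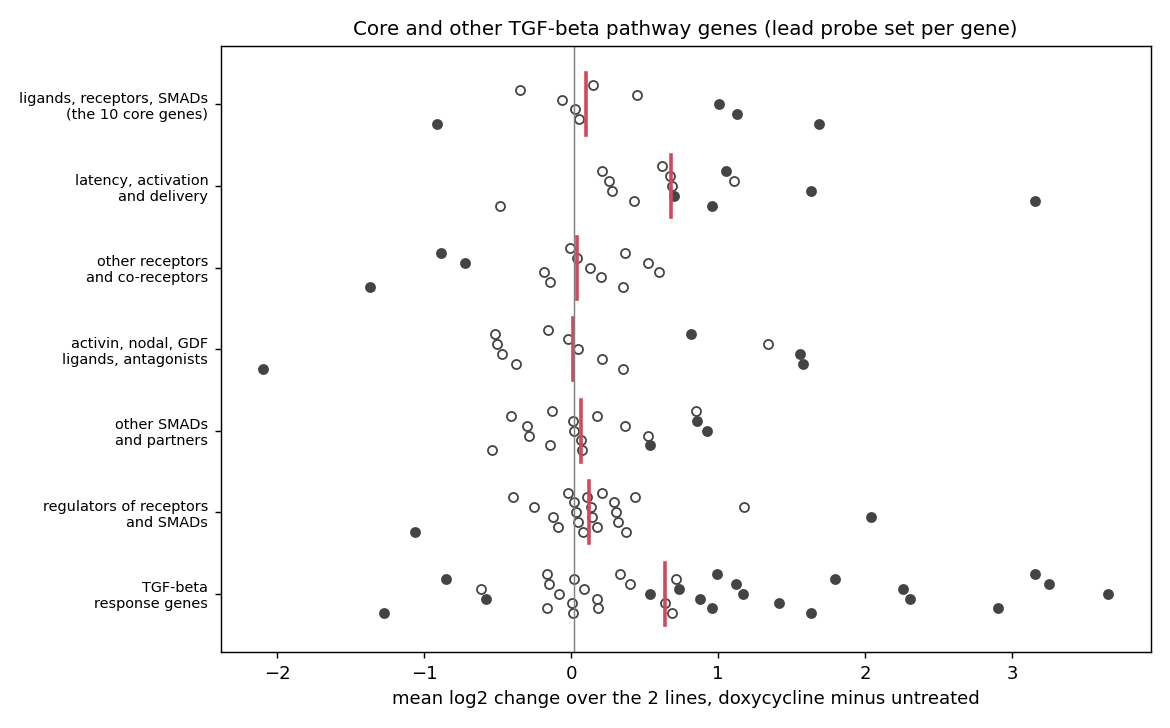
Mean log2 change over the 2 lines (doxycycline minus untreated) of the 10 genes and of the 6 lists of other pathway genes, 1 point per gene by its lead probe set. Filled points have a limma adjusted p under 0.05, red bars are list medians and the grey line is the median of all genes tested (0.02). The medians lie at 0.68 for latency, activation and delivery and at 0.64 for response genes.

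Among genes listed for latency, activation and delivery of TGF-beta, each that passed the test rose. Of 14 tested, 5 rose and 0 fell, 35.7% and 0%, against 4.76% and 6.95% of all genes tested. At an unadjusted p under 0.05 in limma, 7 were higher and 0 lower, against 3555 and 4087 of all 33778 probe sets tested. The median log2 change was 0.72 in line 8534 and 0.68 in line 8542. Ltbp2, a matrix protein of the latent TGF-beta binding family, was at 324 and 265 units in treated 8534 and 8542 cells, against 94.9 and 94.4 units in untreated cells (mean log2 change 1.63 ± 0.20; limma adjusted p = 0.00193). Ltbp1, which tethers the latent complex to the matrix, was at 218 and 126 units in treated cells, against 92.7 and 69.1 units in untreated cells (1.05 ± 0.26; adjusted p = 0.0164). Ltbp3, of the same family, was at 1207 and 1568 units in treated cells, against 724 and 691 units in untreated cells (0.96 ± 0.31; adjusted p = 0.00682). All 3 had treated values above both untreated values. Ltbp4, the remaining member of the family, was at 138 and 115 units in treated cells, against 286 and 108 units in untreated cells, and did not pass (mean log2 change -0.48 ± 0.80; adjusted p = 0.354). Thbs1, which encodes thrombospondin 1 and can activate the latent ligand, was at 3214 and 2231 units in treated cells, against 652 and 138 units in untreated cells, a rise of 4.93-fold and 16.1-fold. Furin, the protease that cleaves the ligand precursors, rose 1.56-fold and 1.69-fold.

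Of 13 other receptors and co-receptors tested, 0 rose and 3 fell (1 and 3 at an unadjusted p under 0.05 in limma). The shares that rose and fell were 0% and 23.1%, against 4.76% and 6.95% of all genes tested. Bambi, a pseudoreceptor that dampens TGF-beta and BMP signaling, was at 30.6 and 129.5 units in treated 8534 and 8542 cells, against 109.9 and 241 units in untreated cells. It fell 3.59-fold and 1.86-fold, a mean log2 change of -1.37 ± 0.67 (limma adjusted p = 0.0187; SD, n = 2 lines). The activin receptors Acvr1b (type I) and Acvr2b (type II) fell by 1.62-fold and 1.68-fold and by 1.78-fold and 1.90-fold (limma adjusted p = 0.0129 and 0.0464). Neither activin receptor passed over the mean of its probe sets (adjusted p = 0.11 for Acvr1b and 0.421 for Acvr2b), and Acvr2b did not pass with quantile normalization (adjusted p = 0.0588) either.

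Among activin, nodal and GDF ligands and their antagonists, the activin subunit genes Inhba and Inhbb moved in opposite directions, whereas Inha, Inhbc and Inhbe did not pass the test. Of 14 genes tested, 3 rose and 1 fell (21.4% and 7.14%, against 4.76% and 6.95% of all genes tested). Inhbb, the βB subunit, was at 337 and 369 units in treated 8534 and 8542 cells, against 1225 and 1850.2 units in untreated cells, a mean log2 change of -2.09 ± 0.33 (limma adjusted p = 0.000528; SD, n = 2 lines). Inhba, the βA subunit, was at 1317 and 147 units in treated cells, against 363 and 59.5 units in untreated cells. The lines lay far apart in Inhba, and each rose, by 3.63-fold and 2.46-fold (limma adjusted p = 0.00255). That call was lost over the mean of the 2 probe sets (adjusted p = 0.0777). Fst, which encodes the activin-binding protein follistatin, rose 2.33-fold and 3.70-fold, and the related Fstl1 rose 1.71-fold and 1.82-fold.

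Of 17 other SMADs and SMAD partners tested, 3 rose and 0 fell (3 and 2 at an unadjusted p under 0.05 in limma). The shares that rose and fell were 17.6% and 0%, against 4.76% and 6.95% of all genes tested. Tgif1, a repressor that joins SMAD complexes, was at 893 and 691 units in treated 8534 and 8542 cells, against 453 and 377 units in untreated cells (mean log2 change 0.93 ± 0.07; limma adjusted p = 0.00494). Smad1, a mediator of BMP signaling, rose 1.61-fold and 2.03-fold. Skil, which encodes the corepressor SnoN, rose 1.46-fold and 1.44-fold, though not when its probe sets were averaged (limma adjusted p = 0.0636). Of 22 regulators of receptors and SMADs, 1 rose and 1 fell (4.55% each, against 4.76% and 6.95% of all genes tested). Wwp2, a ubiquitin ligase, was at 375 and 899.9 units in treated cells, against 115 and 174 units in untreated cells (2.04 ± 0.47; adjusted p = 0.00132), and 3 of its 4 other probe sets above the filter rose as well. Ctdspl, of a family of small phosphatases, fell 2.57-fold and 1.71-fold (adjusted p = 0.0189).

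Genes known to respond to TGF-beta included more that rose than fell. Of 35 tested, 16 rose (45.7%, against 4.76% of all genes tested) and 3 fell (8.57%, against 6.95%), and the median log2 change was 0.75 in line 8534 and 0.52 in line 8542. Many of these genes also respond to other signals, and the list was not divided into genes that TGF-beta raises and genes that it lowers. The list was chosen with earlier results of these data known, so that its shares are descriptions. Postn, which encodes the matrix protein periostin, was at 2880.5 and 2092 units in treated 8534 and 8542 cells, against 409 and 264 units in untreated cells (mean log2 change 2.90 ± 0.12; limma adjusted p = 8.93e-05). The transglutaminase Tgm2 was at 1527 and 1263 units in treated cells, against 374 and 57.0 units in untreated cells (3.25 ± 1.73; adjusted p = 0.00686). Tagln, an actin-binding protein of smooth muscle, was at 1576 and 276 units in treated cells, against 442 and 6.21 units in untreated cells. Its groups overlapped, since untreated 8534 cells lay above treated 8542 cells, and Acta2, the basal marker and smooth muscle actin, likewise differed between the lines, at 6588 and 181 units in treated cells, against 3012 and 148 units in untreated cells. Thbs1, Postn, Tgm2 and Tagln had the 4 largest rises of the list, and the other 12 genes rose by 0.53 to 2.30 on the log2 scale. The genes that fell were Myc (2.11-fold and 2.76-fold), Id3 (2.11-fold and 1.54-fold) and Id1 (1.65-fold and 1.35-fold). The ID genes encode inhibitors of helix-loop-helix factors that BMP signaling induces. Myc is also a NOTCH1-regulated gene in the paper, which reports its decrease with doxycycline.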

How the data were processed

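Total RNA of the 4 cultures was hybridized to Affymetrix mouse genome arrays by the authors, who summarized them by MAS5 and deposited the log2 signals. For MAS5, version and scaling target were not given in the sources used here. That the log is base 2 was inferred, since it gave 2% trimmed means near 100 units (97.7 to 101.8).

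After removal of 64 control probe sets, the platform annotation gave 1 symbol to 34945 of the remaining 45037 probe sets, and only these were named. Changes were log2 values with doxycycline minus untreated within each line. Probe sets with a mean log2 value of 2.94 (25th percentile) or more, 33778 in number, entered a model of line plus treatment (limma 3.58.1 in R 4.3.3, eBayes with an intensity trend), and p-values were adjusted by Benjamini-Hochberg over these probe sets. It left 1 residual degree of freedom, with 6.17 prior degrees of freedom. The model was also run on simulated data whose noise depended on signal level alone, so that this run cannot check the intensity trend. Pairing by line rests on the labels, each line having given both arrays of its pair, whose deviations from the condition means correlated (r = 0.36 across probe sets). The p-values rest on the spread between 2 lines, array noise included, which the fit pooled over probe sets of similar signal. With fewer residual than prior degrees of freedom, that pooled variance weighed more than a gene's own. For Tgfb1 the limma standard error was 0.122, whereas the SD between its lines was 0.01. The number of arrays limits the precision of every value.

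The genes and lists were chosen with earlier results of these data known, so that their counts are descriptions. All 10 genes were named, with up to 4 called genes of each list by size of change, and every called gene where a list had 5 or fewer in a direction. Some genes that were not called were named beside related ones, namely Ltbp4, Inha, Inhbc and Inhbe, and Acta2 as a marker. Of 121 listed genes, 7 had no probe set with a single symbol and were not analysed here. Alternatives were filters, a floor or pseudocount of 5.52 units (the 20th percentile), quantile normalization, median centring, no trend, no block, other choices of probe set, and 1 line alone.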

Additional observations from a re-analysis of the deposited data

Results flagged for a closer look

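Lead probe sets of 4 of the 10 genes changed in opposite directions in the 2 lines, which was the case for 32.4% of all genes tested. The change in line 8542 minus that in line 8534 was 1.30 on the log2 scale for Tgfb2, -0.52 for Smad7, 0.23 for Smad2 and 0.20 for Smad4, and the median absolute difference over all genes tested was 0.32. No test of these differences was possible with single arrays. Tgfb2 differed between the lines by more than that median at each of its 4 probe sets (0.77 to 1.30), which share the same arrays and are not replicates. The called genes moved the same way in both lines, with differences of 0.72 for Smad6, 0.58 for Tgfb3, -0.19 for Tgfbr2 and 0.02 for Tgfb1.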

How the results depend on the processing

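Directions of Tgfb1, Tgfb3, Tgfbr2 and Smad6 held under every alternative run, and their calls held with quantile normalization, median centring, a floor, a pseudocount, no filter and a filter at the 50th percentile. Without the intensity trend limma called 0 of the 10 genes, 0 of their probe sets, 0 of the other pathway genes and 0 of all probe sets (3 higher and 1 lower of the 10 genes, and 2444 higher and 2846 lower of all probe sets, at an unadjusted p under 0.05). Without the replicate block it called 0 of the 10 genes and 0 of the other pathway genes (2 higher and 1 lower, and 21 higher and 7 lower, unadjusted), and 9 higher and 83 lower of all probe sets, against 1245 and 1872 with both. The cause was not tested. With the probe sets of a gene averaged, 0 of the 10 genes were called lower (limma, 1 at an unadjusted p under 0.05). By the fold rule 1551 probe sets were higher and 1980 lower. At 1.5-fold these were 3522 and 3892, and 1 of the 10 genes, Tgfb1, was lower. Above the filter they were 788 and 1276, fewer being counted. With a pseudocount they were 627 and 1098, and 1 of the 10 genes was higher, and with a floor 832 were higher. In 1 line alone 5156 to 5254 were higher and 5050 to 5702 lower, and 2 or 3 of the 10 genes were higher. A line left out leaves no residual degrees of freedom for the paired model.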
